A study of Homo sapiens with 7 samples.

Results

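KLF1 and 9 regulators of the switch from fetal to adult haemoglobin were examined in HUDEP-2 cells in which an enhancer of TMCC2 was targeted by CRISPR interference. The set was chosen by symbol as KLF1, BCL11A, ZBTB7A, SOX6, IKZF1, NR2C1, NR2C2, CHD4, LIN28B and IGF2BP1. All 10 symbols were found among the 32738 gene rows of the deposited count table. After the filter on low counts 10212 genes were tested, among them 9 of the 10 regulators. LIN28B did not pass the filter.

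HUDEP-2 is an immortalised human erythroid progenitor line from umbilical cord blood, grown with doxycycline, which keeps the immortalising genes switched on. The cells behind all 7 libraries received lentivirus for CRISPR interference and were differentiated for 72 h in medium with 3 IU/ml erythropoietin before RNA-seq by Smart-seq2. Of the libraries, 3 carried the non-targeting guide, 2 carried guide 1 and 2 carried guide 2, both directed at the TMCC2 enhancer. No library from cells without virus was analysed here, so the non-targeting libraries share the infection and the differentiation with the others. The labels do not say whether the replicates were separate cultures or whether the infected cells were clones.

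KLF1 is a zinc finger factor that binds CACCC boxes, activates the adult beta-globin gene HBB and much of the red cell programme, and promotes transcription of BCL11A and ZBTB7A. BCL11A and ZBTB7A (also called LRF) bind the promoters of the fetal genes HBG1 and HBG2 and silence them in adult cells, in part through the NuRD complex, whose remodelling ATPase is CHD4. LIN28B and IGF2BP1 are RNA-binding proteins of fetal cells that oppose this silencing. LIN28B blocks maturation of let-7 microRNAs, and let-7 in turn represses transcripts that carry matches to its seed.

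The guide sequences are shown because they define the 3 groups; they are printed as the labels give them, without the PAM.
guide 1: gtcgtgctgcaggtgaagtg
guide 2: ccatccttcagagtaaacag
non-targeting guide: atcgcgaggacccgttccgcc

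The let-7 seed and its matches are shown because they mark the pair of fetal RNA-binding proteins off from the 8 other regulators. The mature let-7a-5p sequence is from RefSeq (GRCh38.p14, chr9:94175962-94175983, plus strand), with the seed, bases 2 to 8, in capitals. The 24-base stretches below it come from the longest coding transcript of each gene in GENCODE v29, with the letters that pair with the seed in capitals.
let-7a-5p: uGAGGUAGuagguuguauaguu
LIN28B, match 1: gctaaggaatgtagtCTACCTCct
LIN28B, match 5: aaatgatggtgttgaCTACCTCtt
IGF2BP1, match 1: tgtgtgcgaagtaaaCTACCTCaa
IGF2BP1, match 4: tcacttttgttttatCTACCTCtt

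CTACCTC, searched on the transcript strand only and over the whole transcript, coding part included, occurred 5 times in LIN28B and 4 times in IGF2BP1. It occurred 1 time each in SOX6 and CHD4 and 0 times in the transcripts of the other 6 regulators. At least 1 match was present in 22.2% of 19669 genes with a coding transcript, and 3 or more in 0.798%. Outside the regulators, DICER1 and ARID3A, which are also linked to let-7, held 4 and 3 matches. A match is a description of the sequence; let-7 levels were not measured in these libraries.

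The libraries held 9780800 to 11350113 counts. TMCC2, the gene next to the targeted enhancer, was at 832, 839 and 937 CPM (the usual depth-scaled count, here with TMM scaling) in the non-targeting libraries. It was at 229 and 219 CPM with guide 1 and at 229 and 260 CPM with guide 2. On the log2 scale TMCC2 fell by 1.89 (SE 0.09), with an adjusted p = 4.43e-08 (edgeR's quasi-likelihood test, Benjamini-Hochberg). The 10 erythroid markers, which include HBB and ALAS2, summed to 198143 to 227314 CPM of total counts. HBB made up most of that sum. With TMM scaling HBB averaged 188171 CPM in the non-targeting libraries and ALAS2 averaged 9065 CPM. The 9 myeloid markers summed to 3.07 to 3.79 CPM in non-targeting and 2.77 to 4.08 CPM in guide libraries, with MPO and S100A8 at 0. Of the 8 lymphoid markers, 6 were at 0 in all libraries, and of the 8 stromal markers found, 5 were. The 8 megakaryocyte markers summed to 177 to 208 CPM in non-targeting and 183 to 214 CPM in guide libraries, with PF4 and PPBP at 0.

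A control library, non-targeting replicate 1, stood apart. Across tested genes, its deviation from the mean of all libraries fell with transcript GC content (Spearman's rho across genes = -0.684), whereas rho lay between -0.311 and 0.421 in the other 6 libraries. Genes are not independent replicates, so rho is given here as a description. Results for the regulators are therefore given with and without this library.

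The regulators spanned a wide range of levels. Expressed per kilobase of exon (the union of exons in GENCODE v29), KLF1 averaged 330 CPM per kb over the 7 libraries, with a range of 258 to 458. The chromatin remodeller CHD4 followed at 8.83, then IKZF1 (Ikaros), a zinc finger factor of blood cells, at 7.998. SOX6, an HMG-box factor that acts with BCL11A, was at 6.58 CPM per kb and BCL11A itself at 5.34. Each neighbour from CHD4 to BCL11A overlapped the next over the libraries, but BCL11A, at 4.92 to 5.91, lay below all libraries of CHD4 (7.51 to 10.1) and IKZF1 (7.22 to 9.23). By the longest transcript in place of the exon union, BCL11A came after KLF1 at 10.4 CPM per kb.

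The less abundant regulators did not overlap their neighbours in this order. NR2C1 and NR2C2 encode TR2 and TR4, the orphan nuclear receptors that bind direct repeats in the embryonic and fetal globin promoters as a pair. NR2C1 was at 3.27 CPM per kb and NR2C2 at 0.352. Between them lay IGF2BP1 at 2.11 and ZBTB7A at 0.795 CPM per kb. LIN28B was lowest at 0.00926 CPM per kb.

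**Figure D1:**
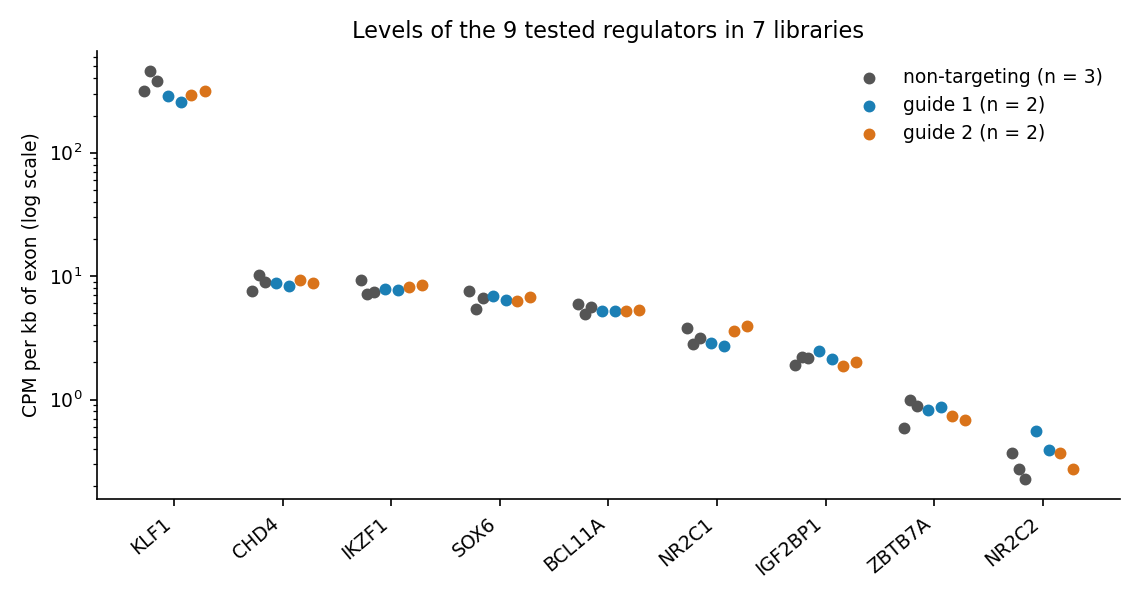
Level of each of the 9 tested regulators in the 7 libraries, in CPM per kb of exon on a log axis; each point is a library, coloured by group. KLF1 lies at 258 to 458 CPM per kb and all other regulators lie at 10.1 or below. For each gene the 4 guide libraries overlap the 3 non-targeting ones.

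KLF1 (ENSG00000105610.5; GRCh38 chr19:12884422-12887199, minus strand) was lower on average with the guides than with the non-targeting guide, but its libraries overlapped. Its level was 506, 738 and 615 CPM in non-targeting replicates 1, 2 and 3. With guide 1 it was 467 and 415 CPM, and with guide 2 it was 469 and 511 CPM. Non-targeting replicate 2 was the highest library, and non-targeting replicate 1 lay below the higher library of guide 2. The non-targeting mean was 620 ± 116 CPM (SD, n = 3) and the mean of the 4 guide libraries was 466 ± 39.3 CPM (SD, n = 4), or 75.2% of it. In these bulk samples fewer cells expressing KLF1 and less KLF1 RNA per cell cannot be told apart.

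The log2 fold change of KLF1 for both guides together was -0.41 (SE 0.12, 95% interval -0.66 to -0.17). It did not pass the adjustment over all genes (edgeR: unadjusted p = 0.00297, Benjamini-Hochberg adjusted p = 0.998). The value was -0.49 (SE 0.14) for guide 1 and -0.34 (SE 0.14) for guide 2, and the difference between the guides was 0.15 with an interval of -0.17 to 0.48. The guides share their controls, so they are not separate evidence of direction. At an adjusted p under 0.05, 0.0196% of the tested genes were called for both guides, 0.0294% for guide 1, 0.00979% for guide 2 and 0% for guide 2 against guide 1. KLF1 was not called in any of these 4 comparisons.

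The call on KLF1 changed with non-targeting replicate 1. Without that library the log2 fold change was -0.54 (SE 0.06, adjusted p = 1.68e-06, edgeR). Per guide it was then -0.62 for guide 1 (adjusted p = 2.16e-06, edgeR) and -0.46 for guide 2 (adjusted p = 0.000518, edgeR). In those 3 fits 0.524%, 0.584% and 1.27% of the 10107 tested genes were called, so KLF1 was among a small share. Without non-targeting replicate 2, its highest library, KLF1 was at -0.27 (adjusted p = 0.587, edgeR).

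KLF1 transcripts have a GC content of 65.7%, near the top of the regulators. With each library's trend on GC content removed, KLF1 was at 613, 674 and 571 CPM in the non-targeting libraries. It was at 432 and 404 CPM with guide 1 and at 467 and 536 CPM with guide 2. All libraries with a guide then lay below all non-targeting libraries, as did those of 3.87% of the tested genes, against 3.74% with all guide libraries above. The log2 fold change with this correction was -0.44 (SE 0.07, adjusted p = 0.0132, edgeR), with 0.0588% of tested genes called. Guide 1 passed (-0.57, adjusted p = 0.00482, edgeR; 0.186% of genes called) and guide 2 did not (-0.31, adjusted p = 0.448, edgeR; 0.0294% called). The difference between the guides with this correction was 0.26 (adjusted p = 0.900, edgeR).

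**Figure D2:**
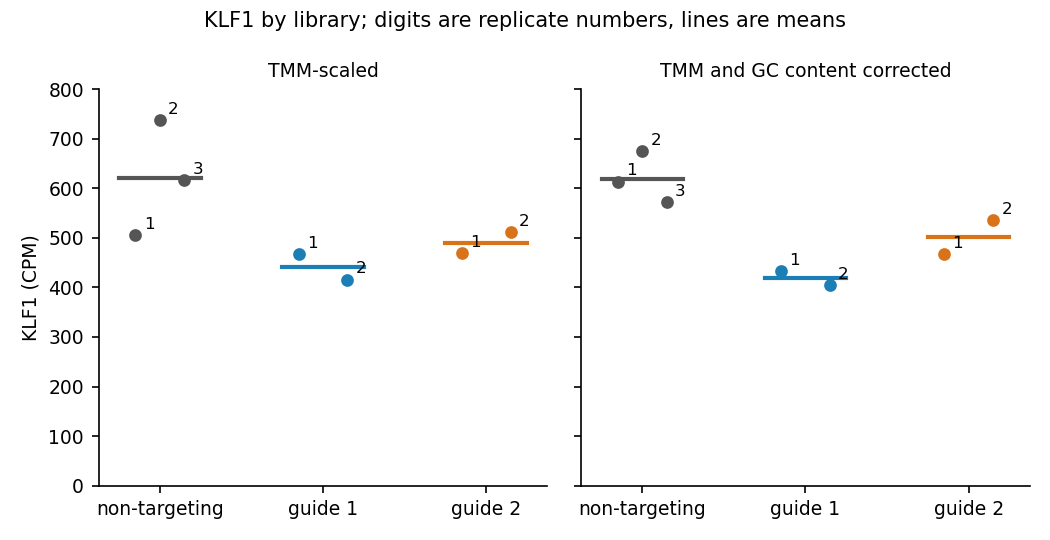
KLF1 in CPM in each library by group, scaled by TMM (left) and with the trend on GC content also removed (right); digits are replicate numbers and lines are group means. On the left non-targeting replicate 1 at 506 CPM lies below guide 2 replicate 2 at 511 CPM, and on the right all 4 guide libraries, at most 536 CPM, lie below the lowest non-targeting library at 571 CPM.

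BCL11A (ENSG00000119866.21; GRCh38 chr2:60450520-60555154, minus strand) overlapped across the groups. It was at 87.4, 72.9 and 82.6 CPM in the non-targeting libraries, at 77.5 and 76.7 CPM with guide 1 and at 77.6 and 78.8 CPM with guide 2. All 4 guide libraries lay inside the non-targeting range. The log2 fold change for both guides was -0.06, with a 95% interval of -0.28 to 0.16. BCL11A varied least of the 10 regulators, with a coefficient of variation of 5.92% over all libraries.

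ZBTB7A (ENSG00000178951.8; GRCh38 chr19:4044364-4066945, minus strand) was counted at 38 to 63 reads a library, so its values are less precise. It was at 3.36, 5.67 and 5.06 CPM in the non-targeting libraries, at 4.73 and 4.95 CPM with guide 1 and at 4.21 and 3.87 CPM with guide 2. Non-targeting replicates 1 and 2 were the lowest and the highest library. The log2 fold change for both guides was -0.08 with an interval of -0.55 to 0.39, so a change of 0.5 in the negative direction is inside it.

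SOX6 (ENSG00000110693.17; GRCh38 chr11:15966449-16739591, minus strand) was at 71.3, 51.0 and 62.4 CPM in the non-targeting libraries. It was at 65.2 and 59.6 CPM with guide 1 and at 58.4 and 63.8 CPM with guide 2, again inside the non-targeting range. Its means were 61.5 ± 10.2 CPM (SD, n = 3) and 61.8 ± 3.25 CPM (SD, n = 4), and the interval of its log2 fold change was -0.26 to 0.27.

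IKZF1 (ENSG00000185811.18; GRCh38 chr7:50304068-50405101, plus strand) was at 75.2, 58.8 and 60.0 CPM in the non-targeting libraries. It was at 64.1 and 63.0 CPM with guide 1 and at 66.1 and 68.9 CPM with guide 2. Non-targeting replicate 1 was the highest library, and the guide libraries lay between it and the other non-targeting libraries. The log2 fold change for both guides was 0.02 with an interval of -0.22 to 0.26.

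CHD4 (ENSG00000111642.15; GRCh38 chr12:6570082-6614524, minus strand) showed the opposite order of the non-targeting libraries, at 51.1, 68.8 and 61.2 CPM. It was at 59.4 and 56.5 CPM with guide 1 and at 63.5 and 59.6 CPM with guide 2. The log2 fold change was -0.02 with an interval of -0.26 to 0.23. Of 12 other NuRD subunits tested, 0 were called, 6 had positive and 6 negative fold changes, and their median was 0.001. Their log2 fold changes ran from -0.19 to 0.38. The named subunits were the deacetylase HDAC2 at -0.19, the histone chaperone RBBP7 at -0.15, GATAD2B at -0.11 and MTA2 at -0.11.

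For the nuclear receptor genes the guides gave unlike values, none of which passed the test. NR2C1 (ENSG00000120798.16; GRCh38 chr12:95020229-95073703, minus strand) was at 17.5, 13.1 and 14.5 CPM in the non-targeting libraries. It was at 13.3 and 12.5 CPM with guide 1 and at 16.6 and 18.0 CPM with guide 2, so the libraries of the guides did not overlap each other but both overlapped the controls. Guide 2 lay above guide 1 in this way for 21.9% of tested genes. Guide 2 minus guide 1 was 0.43 on the log2 scale (SE 0.19, interval 0.02 to 0.83), which did not pass the adjustment (edgeR, adjusted p = 0.983).

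NR2C2 (ENSG00000177463.15; GRCh38 chr3:14947584-15053600, plus strand) was counted at 18 to 48 reads a library and had the widest spread of the tested regulators, with a range of 1.21 on the log2 scale. It was at 3.18, 2.34 and 1.94 CPM in the non-targeting libraries, at 4.73 and 3.36 CPM with guide 1 and at 3.18 and 2.36 CPM with guide 2. Both libraries of guide 1 lay above all 3 controls, as they did for 11.3% of tested genes, and guide 2 overlapped the controls. For guide 1 the log2 fold change was 0.68 (SE 0.31, interval 0.03 to 1.34; edgeR, adjusted p = 0.877). For both guides it was 0.41, with an interval of -0.16 to 0.98 that includes 0.

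LIN28B (ENSG00000187772.7; GRCh38 chr6:104936616-105083332, plus strand) was close to undetected. It had 4 counts in all 7 libraries together, at most 2 in a library and 0 in 4 libraries. Over all libraries this is 0.0541 CPM of total counts, with an exact Poisson 95% interval of 0.0148 to 0.139 that covers counting error only. With 1 count in the non-targeting libraries and 3 with a guide, LIN28B was compared only in fits with no filter on low counts. The standard error there was 1.93 on the log2 scale (edgeR, both guides), so a difference was not detectable at this depth.

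IGF2BP1 (ENSG00000159217.9; GRCh38 chr17:48997412-49055650, plus strand), which carries let-7 matches as LIN28B does, was expressed. It was at 15.9, 18.4 and 18.1 CPM in the non-targeting libraries, at 20.3 and 17.6 CPM with guide 1 and at 15.5 and 16.6 CPM with guide 2. The means were 17.5 ± 1.36 CPM (SD, n = 3) and 17.5 ± 2.04 CPM (SD, n = 4), and the interval of the log2 fold change was -0.28 to 0.28. Its paralogue IGF2BP2 averaged 57.4 CPM and IGF2BP3 averaged 4.95 CPM in the non-targeting libraries. Among 8 tested genes of the let-7 pathway and its fetal targets, 0 were called, with a median log2 fold change of -0.01. The named ones were DIS3L2, the nuclease that degrades uridylated let-7 precursors, at 0.28, ARID3A at -0.17, AGO2 at 0.09 and TUT7 at -0.01. LIN28A and HMGA2 had 0 counts.

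In total, 0 of the 9 tested regulators were called in each of the 4 comparisons. For both guides, 3 had positive and 6 negative log2 fold changes, and their median was -0.01. Over all tested genes the median was also -0.01, with 53.9% negative. At an unadjusted p under 0.05 (edgeR), 1 regulator passed for both guides (KLF1) and 2 for guide 1 (KLF1 and NR2C2). For guide 2, 1 passed (KLF1), as did 1 for guide 2 against guide 1 (NR2C1). Of the 10212 tested genes, 428, 488, 281 and 292 passed in these 4 comparisons, in the same order. All guide libraries lay below all non-targeting libraries for 2.37% of tested genes and above them for 3.03%; among the 9 regulators this held for 0. These intervals do not show that the regulators were unaffected: the narrowest, that of BCL11A, reaches -0.28.

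**Figure D3:**
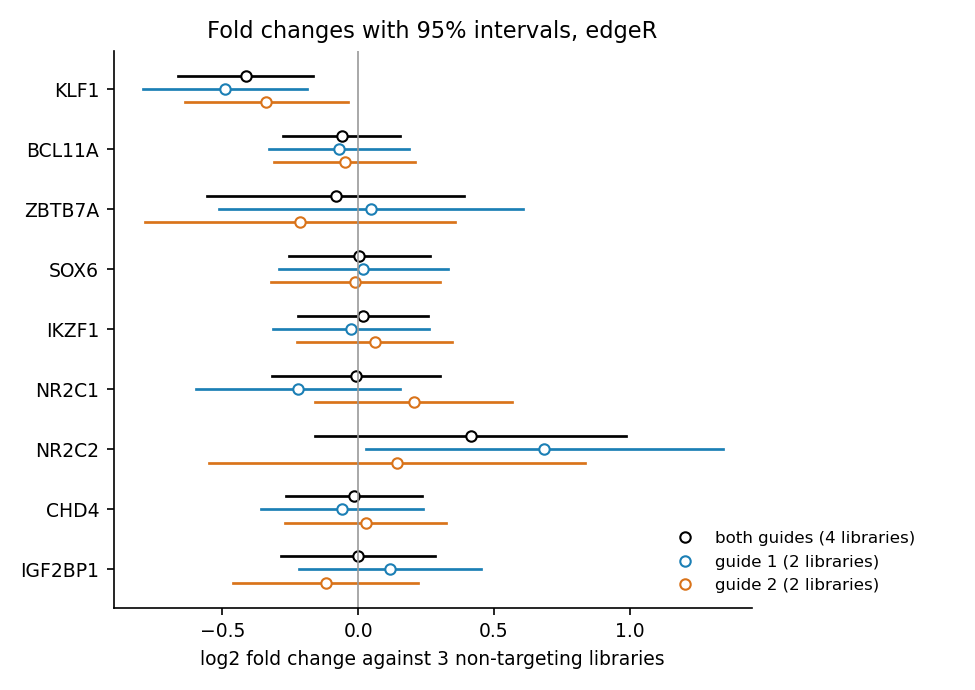
Log2 fold change of each tested regulator against the 3 non-targeting libraries, for both guides, guide 1 and guide 2; circles are edgeR estimates and lines their 95% intervals. The intervals of KLF1 lie below 0 in all 3 comparisons drawn and that of NR2C2 lies above 0 for guide 1, and none of these passed the adjustment over all genes.

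The position of non-targeting replicate 1 among the libraries moved with the GC content of the regulators. It was above the mean of the other 6 libraries by 0.26 on the log2 scale for NR2C1 (GC content 41.4%), 0.25 for SOX6 (46.9%), 0.17 for BCL11A (48.5%) and 0.25 for IKZF1 (48.8%). It was below that mean by -0.15 for IGF2BP1 (55.0%), -0.06 for KLF1 (65.7%) and -0.47 for ZBTB7A (66.2%). CHD4 at -0.26 and NR2C2 at 0.14 have nearly the same GC content, 51.0% and 51.2%, and differed in sign. KLF1 deviated less in this library than ZBTB7A, which has about the same GC content.

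**Figure D4:**
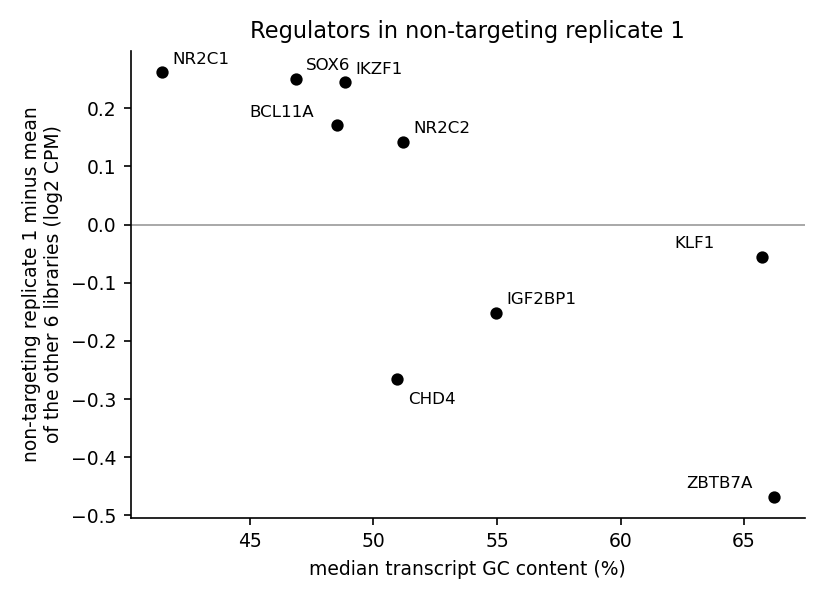
Deviation of non-targeting replicate 1 from the mean of the other 6 libraries (log2 CPM, vertical) against median transcript GC content in percent (horizontal) for the 9 tested regulators. The 4 regulators of lowest GC content lie above 0 and the 3 of highest GC content lie below it, from 0.26 for NR2C1 to -0.47 for ZBTB7A.

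Leaving out non-targeting replicate 1 moved the regulators other than KLF1 without a call. For both guides the log2 fold change was then 0.63 for NR2C2, -0.28 for ZBTB7A, 0.14 for IKZF1, 0.13 for SOX6, 0.12 for NR2C1 and -0.12 for CHD4. It was -0.07 for IGF2BP1 and 0.001 for BCL11A. Over the 15 alternative analyses KLF1 kept a negative and NR2C2 a positive sign, while each of the other 7 changed sign in at least 1.

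The genes whose pattern over the 7 libraries was most like that of each regulator were taken by the root mean square difference of centred log2 CPM among genes of at least 20 CPM. The closest to KLF1 were MRPL41 at a difference of 0.049, HMG20B at 0.089 and TBC1D17 at 0.091, against a spread of 0.26 for KLF1 itself. Their transcript GC contents were 71.9%, 64.3% and 62.7%, beside 65.7% for KLF1. HMG20B encodes a subunit of the LSD1-CoREST complex. It was at 34.3, 46.4 and 39.1 CPM in the non-targeting libraries, at 34.5 and 30.7 CPM with guide 1 and at 32.6 and 33.6 CPM with guide 2, with non-targeting replicate 2 again the highest.

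The closest gene was SMU1 for BCL11A (0.019), MRPL54 for ZBTB7A (0.049), KLHL9 for SOX6 (0.044) and ATG3 for IKZF1 (0.030). It was TRA2B for NR2C1 (0.076), EXOSC7 for CHD4 (0.036) and ALDH18A1 for IGF2BP1 (0.044). NR2C2 had no close match, with FAM129A nearest at 0.23 against its own spread of 0.37. The libraries share depth and the GC trend, so likeness over 7 libraries is a description of these libraries.

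The genes that act beside and below KLF1 were read from lists of known names. Of 29 tested genes described as KLF1 targets outside the globin loci, 0 were called for both guides. Of these, 10 had positive and 19 negative fold changes, with a median of -0.04, beside 53.9% negative over all tested genes. With guide 1, 15 were positive and 14 negative (median 0.02), where 51.5% of all genes were negative. With guide 2, 4 were positive and 25 negative (median -0.07), where 55.3% of all genes were negative. Compared directly, guide 2 against guide 1, 11 were positive and 18 negative (median -0.06), where 49.7% of all genes were negative. In that comparison 0 were called, so a difference between the guides was not shown for these genes. XK, which encodes the carrier of the Kx blood group antigen, was at 439, 338 and 351 CPM in the non-targeting libraries. It was at 269 and 265 CPM with guide 1 and at 293 and 348 CPM with guide 2, or -0.36 on the log2 scale (SE 0.11; edgeR, adjusted p = 0.998). The red cell pyruvate kinase gene PKLR was at -0.22 and the mitochondrial iron importer SLC25A37 at 0.13. Without non-targeting replicate 1, XK was at -0.24, and PKLR was called at -0.32 (adjusted p = 0.0256, edgeR) in a fit that called 0.524% of all genes. Without non-targeting replicate 2, PKLR was at -0.14 and not called.

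The 9 erythroid factors that work with KLF1 had 0 calls, a median of -0.01 and a range of -0.20 to 0.41. GATA1, the master regulator of the lineage, had a non-targeting mean of 478 ± 60.3 CPM (SD, n = 3) and a mean over the guide libraries of 475 ± 26.6 CPM (SD, n = 4). The named ones were LYL1 at -0.20, TCF3 at -0.09, GFI1B at -0.08 and LDB1 at 0.09. Of 17 other corepressors, 0 were called, 8 had positive and 9 negative fold changes, and the median was -0.02, with a highest value of 0.41. The named ones were HMG20B at -0.28, TBL1XR1 at -0.29, SMARCA5 at -0.19 and PRMT5 at -0.28.

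Among 21 other tested factors linked to fetal globin, 0 were called and the median was -0.07. KLF10, a relative of KLF1, was at 93.4, 85.4 and 84.5 CPM in the non-targeting libraries and at 65.1 to 76.3 CPM in the 4 guide libraries. The partner protein gene MAFK was at 4.86, 4.86 and 3.77 CPM and at 5.85 to 7.38 CPM in the same groups. For both genes the groups did not overlap, as for the 2.37% of all tested genes below and 3.03% above, with log2 fold changes of -0.29 and 0.51, and neither passed (edgeR, adjusted p = 0.998 each). YY1 was at -0.25 and HIC2, a repressor of BCL11A, at 0.27. Of 22 family relatives of the regulators only 10 passed the filter, 0 were called, and the median was -0.14. Of the relatives tested, 4 had positive and 6 negative fold changes, with a highest value of 0.15. The named ones were KLF3 at -0.26, KLF11 at -0.19, ZBTB7B at -0.18 and IKZF5 at -0.13.

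The output of the switch was read as the fetal share, the counts of HBG1 and HBG2 as a percent of all beta-like globin counts. HBG1 and HBG2 are near-identical copies and were summed, since how reads matching both were counted is not given in the sources used here. The fetal share of the non-targeting libraries was 9.06%, 8.68% and 9.69%; it was 7.75% and 7.81% with guide 1 and 6.92% and 7.52% with guide 2. All 4 guide libraries lay below all 3 non-targeting libraries in this share, a separation that 2.37% of tested genes showed in CPM. Neither fetal gene showed it by itself. HBG1 with guide 1, at 1643 and 1676 CPM, was above non-targeting replicates 1 and 2, at 1610 and 1491 CPM. HBG2 in guide 1 replicate 2, at 16087 CPM, was above non-targeting replicate 1, at 14771 CPM. The means of the fetal share were 9.14% ± 0.510 (SD, n = 3) and 7.50% ± 0.407 (SD, n = 4), a difference of -1.64 percentage points. The exact permutation test over libraries, made two-sided by doubling the one-sided p, gave p = 0.0571. This is the smallest p that the doubled test can give with 3 against 4 libraries, so this test cannot reach 0.05.

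Non-targeting replicate 1 was not extreme in this measure, and without it the difference was -1.69 points. Gene by gene, HBG1 was at a log2 fold change of -0.27, HBG2 at -0.24, the embryonic gene HBE1 at -0.31 and HBZ at -0.23, with 0 of 10 tested globin genes called. For HBG1 the guides gave unlike values, -0.02 with guide 1 and -0.52 with guide 2. That difference was -0.50 (interval -0.78 to -0.22) and was not called (edgeR, adjusted p = 0.983). HBG2 was at -0.14 and -0.35, HBE1 at -0.28 and -0.33, and HBZ at 0.04 and -0.50 with guides 1 and 2. The interval of guide 2 minus guide 1 was -0.50 to 0.09 for HBG2, -0.52 to 0.42 for HBE1 and -1.02 to -0.08 for HBZ. In that comparison 0 globin genes were called. HBB, most of the denominator of the share, was at 0.13 with guide 1 and 0.01 with guide 2. Without non-targeting replicate 1, HBG2 was called at -0.36 (adjusted p = 2.45e-05, edgeR), HBG1 at -0.31 (adjusted p = 0.0151, edgeR) and HBE1 at -0.51 (adjusted p = 0.00197, edgeR), where 0.524% of all genes were called. Without non-targeting replicate 3 the values were smaller and none was called: HBG2 was at -0.12, HBG1 at -0.15, HBE1 at -0.08 and HBZ at 0.02. The part that the KLF1 level has in the fetal share was not tested.

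**Figure D5:**
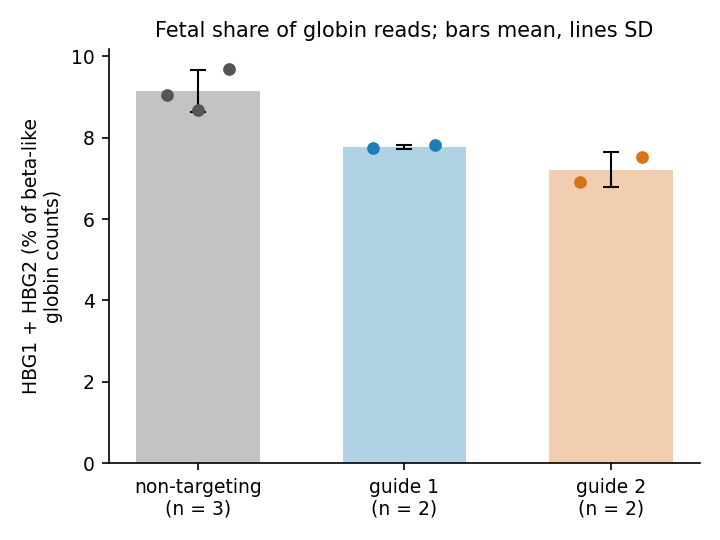
Fetal share of the beta-like globin counts in percent by group; bars are means, lines are SD and points are libraries. The 4 guide libraries lie at 6.92% to 7.81%, below the 3 non-targeting libraries at 8.68% to 9.69%.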

How the data were processed

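The deposited table holds unscaled read counts by gene symbol with 1 column per library, per the file header. STAR and the genome build GRCh37 (hg19) are named per the submitters' processing notes; the counting program, annotation and strand setting were not given in the sources used here. Smart-seq2 uses no strand or molecular identifiers, so antisense reads and PCR copies were counted too. Gene positions, lengths and GC content come from GENCODE v29 on GRCh38 and were matched by symbol (GC content for 92.3% of tested genes); no coordinates were mixed with the build of the counts.

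Counts were filtered with filterByExpr (minimum count 10), scaled by TMM and fitted with edgeR 4.0.16 in R 4.3.3 by quasi-likelihood, with 3 groups and 4 residual degrees of freedom. Calls were two-sided, at p under 0.05 after Benjamini-Hochberg adjustment over the 10212 genes. CPM are relative to the TMM-scaled library size; marker sums use total counts. The members and gene lists were chosen with earlier results of these data known. From each list up to 4 genes of smallest unadjusted p with at least 5 CPM in a group were named, and for each regulator up to 3 most similar genes; IGF2BP2, IGF2BP3, GATA1 and genes at 0 were named in addition, after their values were seen. TUT7 is listed under its older symbol. Some list genes are not reported here. Alternatives were DESeq2 1.42.0, RLE and total-count scaling, scaling without globins, no filter, a replicate block, GC correction (loess, span 0.3), and leaving out each library. The labels do not call the replicates separate cultures, so p-values reflect only sample-to-sample spread, possibly technical. No replicate pair within a group agreed within sampling noise (chi-square per degree of freedom at least 2.22). The test was tested on simulated data for both guides against non-targeting, over 10212 genes: 82% of genes changed by 1 (log2) and 31% of those changed by 0.5 were recovered, and 9 of 122 calls were unchanged genes. When 1 simulated control library was also given a trend on GC content, left uncorrected, 74% and 21% were recovered. With the correction, 83% and 34% were. Each simulation held 100 changed genes of each size and gave 99 to 123 calls, whereas the data gave 2 for both guides. The adjustment is stricter where fewer genes are called, so recovery in the data can be lower than these percentages.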

Additional observations from a re-analysis of the deposited data

How the results depend on the processing

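For both guides, guide 1, guide 2 and guide 2 against guide 1, the genes called over the whole table were 2, 3, 1 and 0. They were 4, 5, 3 and 1 with DESeq2, 8, 19, 4 and 2 with no filter, 6, 19, 3 and 2 with GC content correction, and 4, 9, 2 and 1 with a replicate block and GC content correction together. With the replicate block alone, 1 gene was called for both guides and 1 for guide 2 against guide 1. Leaving out 1 library gave 1 to 53, 1 to 59, 1 to 128 and 0 to 32 genes; the highest counts were all without non-targeting replicate 1. Of the regulators only KLF1 was called under any alternative: 1 call for both guides and 1 for guide 1 with GC content correction, 1 for guide 1 with no filter and with the block and GC content correction, and 0 to 1 in each guide comparison when 1 library was left out, the call coming without non-targeting replicate 1. Leaving out 1 library called 0 regulators for guide 2 against guide 1. The KLF1 log2 fold change was -0.44 with GC content correction (adjusted p = 0.0132, edgeR) and -0.54 to -0.27 when 1 library was left out, and with the replicate block it was -0.40 (adjusted p = 0.995, edgeR). It was negative in all 15 alternatives and called in 2. With the replicate block HBG1, HBG2 and HBE1 were at -0.15, -0.11 and -0.06 and HBZ at 0.02, with 0 of them called. Only non-targeting has a replicate 3, so the block also takes that library out of the comparisons. It is therefore not separate from the alternative that leaves out non-targeting replicate 3. The fetal share difference was -1.88 to -1.37 points when 1 library was left out and -1.68 with HBB alone in the denominator. Within replicate numbers it was -1.37, the same value as without non-targeting replicate 3, because that library has no counterpart. Correlations between the deviations of same-numbered libraries from their group means were -0.19 to 0.03. With 2 libraries per guide these deviations are equal and opposite by construction, so the correlations cannot settle whether the numbers mark pairs. The main fit did not read them as pairs, and the replicate block is given beside it. Why the calls change without non-targeting replicate 1 was not tested. Depth limits ZBTB7A and NR2C2, at 18 to 63 reads a library, and LIN28B.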
